A study of Mus musculus with 12 samples.

Results

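The epidermal growth factor (EGF) receptor, its ligands, its partner receptors and its intracellular inhibitor were followed in the large bowel of mice with chemical colitis and with berberine (BBR), a plant alkaloid. The 10 genes were taken by symbol: the ligands Areg, Ereg, Hbegf, Tgfa, Btc and Epgn, the receptors Egfr, Erbb2 and Erbb3, and the inhibitor Errfi1. All 10 are among the 17734 genes of the expression table, and all 10 passed the filter on low values, a 12-mouse mean of 0.1 FPKM or more, that left 15315 genes to test. Bulk RNA of 12 male C57BL/6 mice aged 8 to 10 weeks was sequenced, with 3 mice in each of 4 groups. The tissue is colorectum by the sample labels and rectum by the study's methods. Normal mice received neither agent. Colitis mice drank 2.5% dextran sulfate sodium (DSS) for 7 days, an injury model in which the polymer damages the bowel lining. Normal mice receiving BBR were given 100 mg/kg by gavage, and colitis mice receiving BBR had both agents. The labels put the BBR dosing at 6 days, and the methods from day 1 to day 7. A mouse is named below by its group and the number in its label, and both normal groups have numbers 1, 3 and 4, the colitis group 1, 2 and 4, and the colitis group with BBR 2, 3 and 4.
EGF family ligands are made as membrane proteins and are cut free at the cell surface by metalloproteases of the ADAM family. A ligand brings EGF receptor molecules together as pairs, with each other or with ErbB2, which has no ligand of its own, or ErbB3, which has little kinase activity. The paired receptors signal through the RAS-ERK and PI3K-AKT cascades, and Errfi1 is among the genes that ERK signalling switches on and whose product then shuts the receptor kinase down. In the bowel the pathway is known for driving proliferation of the crypt epithelium and closure of wounds.
Values were taken as fragments scaled for transcript length and sequencing depth (FPKM), though no source names the unit. On that scale levels can be compared between genes. Fold changes are differences of group means of log2(FPKM + 0.1), which understates changes of low genes, with a standard error (SE) from a limma fit over the 12 mice. Adjusted p-values (Benjamini-Hochberg, all tested genes) were held to a limit of 0.05, and the unadjusted P limit of 0.05 that the study used is given beside it. With 3 mice a group, the smallest p of the exact two-sided permutation test is 0.1. The mice numbered 4 stand apart in every group, with summed values of 482194 to 504337 FPKM and 872 to 1086 genes at 0, against 696286 to 765876 FPKM and 1332 to 1926 genes at 0 in the other 8 mice. Defining markers of columnar epithelium were abundant in every mouse, with Epcam, Cdh1, Vil1 and 5 more summing to 6780 to 13160 FPKM. Of the squamous markers, Krt5 was at most 0.12 FPKM, Krt4 at most 0.03 FPKM and Trp63 at most 0.18 FPKM in any mouse, while Krt13 reached 5.18 FPKM and Krt6a 0.97 FPKM, both in colitis mouse 2.
In normal mice the receptor partners and the inhibitor were the most abundant members and epigen (Epgn) the least. Mean levels were 64.9 ± 8.88 FPKM for Erbb3, 53.8 ± 6.6 FPKM for Errfi1, 44.1 ± 7.7 FPKM for Erbb2 and 26.4 ± 9.74 FPKM for Areg (SD, n = 3). Below them stood Hbegf at 12.9 ± 11.3 FPKM, Tgfa at 9.0 ± 0.93 FPKM, Egfr at 7.71 ± 0.203 FPKM, Btc at 3.11 ± 0.241 FPKM, Ereg at 2.21 ± 1.23 FPKM and Epgn at 0.0667 ± 0.0208 FPKM (SD, n = 3). Neighbours in this order had overlapping ranges over the normal mice, except Tgfa against Egfr, Egfr against Btc, and Ereg against Epgn. In colitis mice Egfr stood at 22.5 ± 17.1 FPKM and Ereg at 10.5 ± 6.58 FPKM (SD, n = 3), both above Tgfa at 10.3 ± 0.311 FPKM, though the ranges of these neighbours in the order overlapped.
Epgn, Ereg, Areg and Btc lie in this order on mouse chromosome 5 in the RefSeq annotation, with no other gene of the expression table between them. RefSeq windows before the transcript start were held for 7 of the 10 members. Those of Epgn, Areg, Egfr and Errfi1 are shown because Epgn and Egfr had their highest levels in the same mice, Areg made up the largest share of ligand RNA, and Errfi1 is the inhibitor. Each window is the 250 bases before the start, printed 5′ to 3′ on the strand of the gene, in build GRCm38.p6, with the letters of 4 searched motifs in capitals.
Epgn promoter, chr5:91027267-91027516, plus strand: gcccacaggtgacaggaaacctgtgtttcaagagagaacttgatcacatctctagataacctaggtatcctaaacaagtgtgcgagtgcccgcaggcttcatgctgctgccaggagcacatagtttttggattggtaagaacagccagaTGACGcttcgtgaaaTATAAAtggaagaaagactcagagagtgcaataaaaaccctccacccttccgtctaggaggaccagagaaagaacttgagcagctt
Areg promoter, chr5:91139349-91139598, plus strand: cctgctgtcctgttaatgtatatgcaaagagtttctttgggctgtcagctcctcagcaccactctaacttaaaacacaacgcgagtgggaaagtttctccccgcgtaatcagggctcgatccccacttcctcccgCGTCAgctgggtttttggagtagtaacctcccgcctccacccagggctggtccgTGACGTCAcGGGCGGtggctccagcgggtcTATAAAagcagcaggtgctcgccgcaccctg
Egfr promoter, chr11:16751953-16752202, plus strand: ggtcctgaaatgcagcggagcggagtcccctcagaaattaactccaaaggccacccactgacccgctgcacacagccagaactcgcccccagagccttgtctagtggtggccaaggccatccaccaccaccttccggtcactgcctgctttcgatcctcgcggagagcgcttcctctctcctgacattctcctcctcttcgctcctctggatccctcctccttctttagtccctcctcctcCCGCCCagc
Errfi1 promoter, chr4:150854820-150855069, plus strand: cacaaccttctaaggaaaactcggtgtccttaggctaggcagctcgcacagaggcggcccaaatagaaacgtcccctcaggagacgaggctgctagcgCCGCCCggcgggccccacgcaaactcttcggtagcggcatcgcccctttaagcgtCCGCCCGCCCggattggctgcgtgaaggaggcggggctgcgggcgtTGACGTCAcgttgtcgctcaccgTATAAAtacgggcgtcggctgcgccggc
The motifs are the cyclic AMP response element (CRE, TGACGTCA), its shorter form TGACG, the TATA box TATAAA and the GC box GGGCGG, searched on both strands, so that CGTCA and CCGCCC are matches on the other strand. The fifth motif searched, the AP-1 site TGANTCA, matched none of the 4 windows shown. The full CRE, which contains the shorter form, was found 61 bases before the Areg start and 51 bases before the Errfi1 start, and 1.55% of 32851 mouse windows of this length hold it. TATAAA was found 31 bases before the Areg start, 28 before the Errfi1 start and 86 before the Epgn start, and 12.4% of all windows hold it. The Epgn window held TGACG, as 17.8% of all windows do, and the Egfr window held only a GC box, as 32.7% do. The AP-1 letters are in 6.75% of all windows. Errfi1 has another start with a window of its own, at chr4:150853546-150853795, in which none of the 5 motifs was found. These are letter matches, not tested sites.
The first comparison, colitis mice against normal mice, asks how the injury changed the RNA of these genes. All 6 ligands had a higher group mean of log2 values in colitis, from 0.19 for Tgfa to 2.44 for Epgn, while Erbb2, Erbb3 and Errfi1 had lower ones. The RNA of 2 of 10 members, Ereg and Epgn, was higher past the unadjusted P limit, and 5.56% of all tested genes were higher by this limit. Past the adjusted limit there were 0 of 10 members, with 1.08% of all tested genes called by limma in either direction. With a block for the mice numbered 4, Ereg and Epgn both passed it, with adjusted p of 0.0401 and 0.0197 by limma, and 9.22% of all tested genes were called in that fit. In 4 of 10 members, Ereg, Epgn, Egfr and Tgfa, every colitis mouse was above every normal mouse, and 7.1% of all tested genes were higher without overlap. The members' median log2 difference was 0.46, against -0.32 over all tested genes. In bulk RNA, fewer cells of a type and less RNA per cell cannot be told apart.
Ereg encodes epiregulin, a ligand of EGFR and ErbB4. It measured 2.96, 0.79 and 2.88 FPKM in normal mice 1, 3 and 4, against 7.37, 18.07 and 6.08 FPKM in colitis mice 1, 2 and 4. The lowest colitis mouse was above the highest normal mouse, and colitis mouse 2 was the highest of the 12. The difference was 2.23 ± 0.56 (log2, SE), or 4.69-fold, with a 95% interval of 1.01 to 3.45, an unadjusted P of 0.00192 and an adjusted p of 0.0713 by limma. Leaving out each mouse in turn gave 1.64 to 2.54, and every one of these 6 values stayed past the unadjusted limit.
Epgn encodes epigen, a low-affinity EGFR ligand. Its normal levels of 0.09, 0.05 and 0.06 FPKM were all under the worth of 3 reads, which was 0.0885 to 0.1411 FPKM over the 12 mice for a transcript of 1760 bases, while the colitis levels of 0.68, 1.57 and 0.46 FPKM were above it. The groups did not overlap, and colitis mouse 2 again had the highest value. On estimated reads, 67 in the colitis mice against 5 in the normal mice, the ratio was 12.7 with a 95% interval of 5.17 to 40.3, which covers counting error only. The fitted difference was 2.44 ± 0.61 (log2, SE), with an adjusted p of 0.0705 by limma, and it depends on the constant added before taking logarithms, from 0.79 with 1 FPKM to 3.42 with 0.01 FPKM. The normal mice alone would not have passed the filter on low values.
Areg encodes amphiregulin, the EGFR ligand best known from mucosal repair, and it was the largest single part of the ligand RNA in every mouse. It measured 36.93, 17.77 and 24.34 FPKM in normal mice against 42.21, 90.45 and 18.79 FPKM in colitis mice 1, 2 and 4. Colitis mouse 2 was far above the rest while colitis mouse 4 lay inside the normal range. The difference of 0.72 ± 0.61 (log2, SE) did not pass a limit (adjusted p = 0.473 by limma), and it was 0.16 without colitis mouse 2 and 1.29 without colitis mouse 4.
Hbegf encodes heparin-binding EGF-like growth factor. Its 3 normal mice, at 25.18, 3.01 and 10.52 FPKM, already spanned the colitis mice at 13.75, 22.27 and 10.77 FPKM. The groups overlapped, and the log2 difference was 0.67 ± 0.68 (SE). It was -0.13 without normal mouse 3 and 1.38 without normal mouse 1, where the unadjusted P was 0.0498 by limma. Tgfa, which encodes transforming growth factor alpha, measured 8.18, 10.01 and 8.81 FPKM in normal mice against 10.63, 10.19 and 10.03 FPKM in colitis mice. The groups lay just apart, with a difference of 0.19 ± 0.17 (log2, SE, adjusted p = 0.493 by limma). Over 18 other settings the Tgfa difference was 0.13 to 0.53. It passed the unadjusted limit in 2 of them, with the lowest P of 0.0266 by limma, and the adjusted limit in 0. Btc, which encodes betacellulin, measured 2.91, 3.38 and 3.05 FPKM against 3.04, 6.39 and 2.58 FPKM. Colitis mouse 2 was above and colitis mouse 4 below every normal mouse, and without mouse 2 the log2 difference went from 0.24 to -0.14.
The summed FPKM of the 6 ligands was 76.25, 35.01 and 49.66 in normal mice 1, 3 and 4, and 77.68, 148.9 and 48.71 in colitis mice 1, 2 and 4. The ranges overlapped, with an exact permutation p of 0.4. Areg alone made up 38.6% to 80.1% of the sum over the 12 mice.

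**Figure D1:**
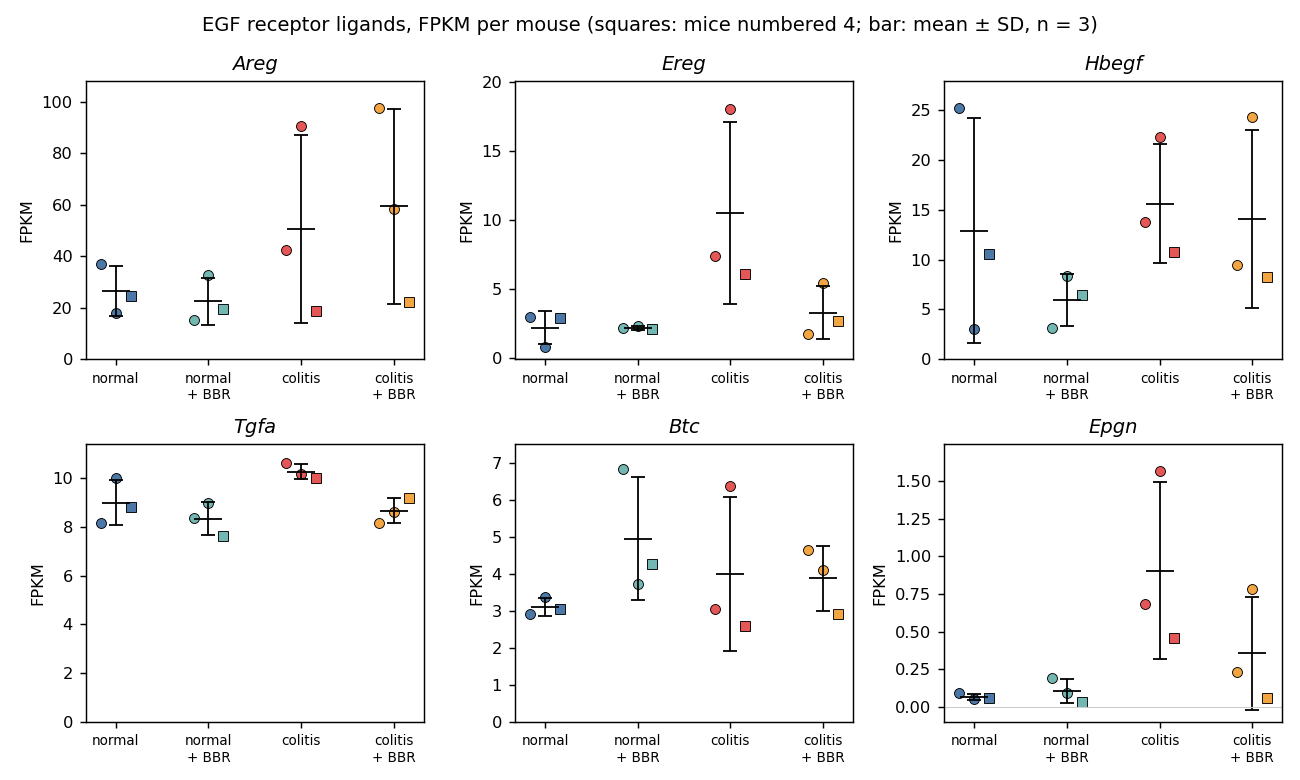
Level of the 6 EGF family ligands in each of the 12 mice, in FPKM on a linear axis with its own scale for each gene. Points are mice by group, with squares for the mice numbered 4, horizontal bars are group means with an error bar of 1 SD (n = 3), and the colitis points of Ereg and Epgn lie above all normal points.

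Among the receptors, Egfr encodes the receptor that all 6 ligands bind. It was nearly the same in the normal mice, at 7.67, 7.93 and 7.53 FPKM, and measured 15.2, 42.04 and 10.21 FPKM in colitis mice 1, 2 and 4. Each colitis mouse was above each normal mouse, and colitis mouse 2 was the highest of the 12. The difference of 1.27 ± 0.59 (log2, SE), or 2.41-fold, fell short of both limits, with an unadjusted P of 0.0526 and an adjusted p of 0.237 by limma. Without colitis mouse 2 it was 0.69, and without colitis mouse 4 it was 1.7. The unadjusted limit was passed in 6 of 18 other settings, the block for the mice numbered 4 among them. The lowest P was 0.0191 by limma, without colitis mouse 4. The adjusted limit was passed in 0 of 18.
Erbb2 encodes the preferred partner receptor. It measured 35.9, 51.17 and 45.29 FPKM in normal mice against 39.91, 16.52 and 36.86 FPKM in colitis mice. Colitis mouse 2 was the lowest of the 12 mice, and the other colitis mice overlapped with the normal range (log2 difference -0.59 ± 0.34, SE, adjusted p = 0.317 by limma). It was -0.19 without colitis mouse 2 and -0.82 without colitis mouse 1, where the unadjusted P was 0.0484 by limma. Erbb3, the neuregulin-binding receptor, measured 55.19, 72.59 and 66.93 FPKM in normal mice against 66.03, 38.07 and 54.19 FPKM in colitis mice. Here too colitis mouse 2 was the lowest of all, and the difference of -0.33 ± 0.23 (log2, SE), which was 0.01 after centring each mouse on its median, did not pass a limit (adjusted p = 0.402 by limma).
Errfi1 encodes the feedback inhibitor of the receptor kinase also known as MIG6. It measured 57.29, 46.15 and 57.85 FPKM in normal mice against 40.55, 81.93 and 31.27 FPKM in colitis mice. Colitis mouse 2 was the highest and colitis mouse 4 the lowest of the 12, so that the colitis values enclosed the normal ones. The log2 difference was -0.19 ± 0.33 (SE, adjusted p = 0.747 by limma), and it was 0.15 after centring on the median.

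**Figure D2:**
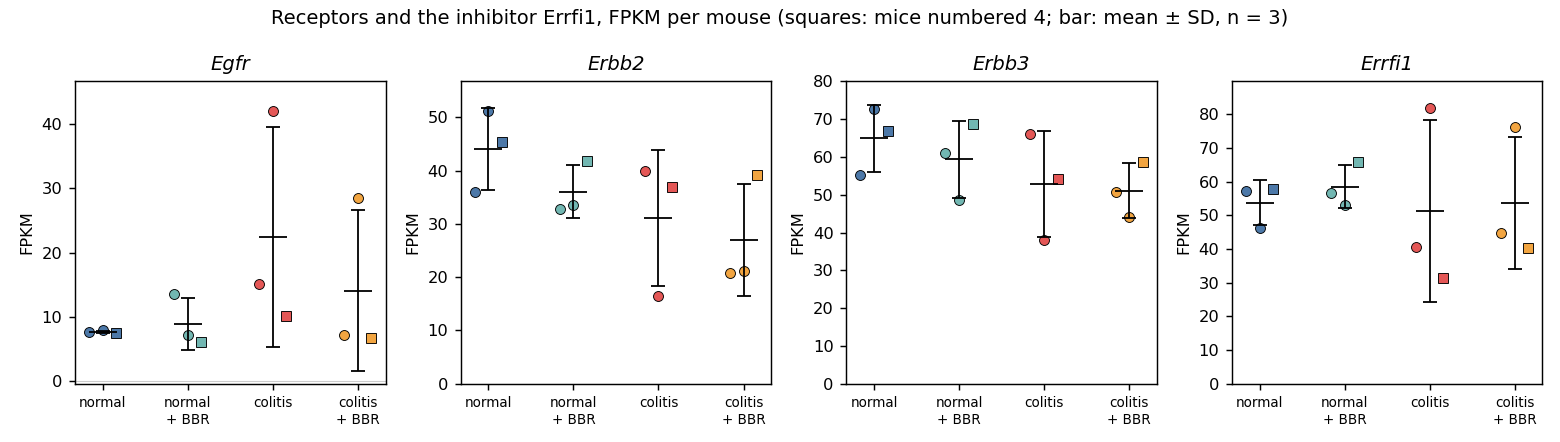
Level of Egfr, Erbb2, Erbb3 and Errfi1 in each of the 12 mice, in FPKM on a linear axis with its own scale for each gene. Points are mice by group, with squares for the mice numbered 4, horizontal bars are group means with an error bar of 1 SD (n = 3), and colitis mouse 2 has the highest Egfr at 42.04 FPKM and the lowest Erbb2 at 16.52 FPKM.

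The members did not vary independently from mouse to mouse. Epgn and Egfr had their 3 highest values in the same mice in the same order, colitis mouse 2, colitis mouse 3 receiving BBR and colitis mouse 1. The squamous markers Krt13, Dsg3 and Krt6a were highest in the same 3 mice, at up to 5.18, 0.92 and 0.97 FPKM, while Krt10, Krt14 and Sfn were not. Whether such cells take part was not tested. Errfi1 was also highest in colitis mouse 2 at 81.93 FPKM and next in colitis mouse 3 receiving BBR at 76.14 FPKM. Areg and Erbb2 ran opposite: the 3 mice with the most Areg, colitis mouse 2 and colitis mice 2 and 3 receiving BBR, at 58.48 to 97.75 FPKM, were the 3 with the least Erbb2, at 16.52 to 21.2 FPKM. These mice are also 3 of the 4 DSS-treated mice outside the set numbered 4, and the pattern was read from the same values that are described.

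**Figure D3:**
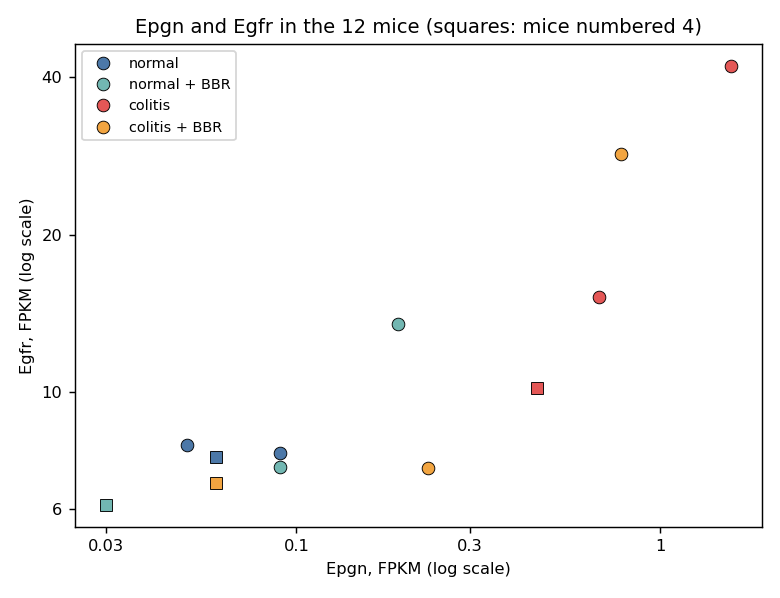
Egfr level against Epgn level in the 12 mice, both in FPKM on log axes, each point a mouse coloured by group, with squares for the mice numbered 4. The 3 mice highest on both axes are colitis mouse 2, colitis mouse 3 receiving BBR and colitis mouse 1. Normal mice without BBR lie at 0.05 to 0.09 FPKM of Epgn and those receiving BBR at 0.03 to 0.19 FPKM.

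Markers of other cell types moved with the colitis values. The 8 granulocyte markers summed to 3.01 to 6.85 FPKM in normal mice against 58.13 to 726 FPKM in colitis mice, with 7 of 8 higher past the unadjusted limit and S100a8 at 0 in every normal mouse. The 8 macrophage markers summed to 223.3 to 297.7 FPKM in normal mice against 339.4 to 1012 FPKM in colitis mice (4 of 8 higher past the unadjusted limit), and the 8 smooth muscle markers to 1648 to 3095 FPKM and 71.45 to 662.9 FPKM, with 8 of 8 lower past it. Colitis mouse 2 had the highest granulocyte and macrophage sums of the 12 mice. The part of these cells in the ligand and receptor values was not tested. The 8 epithelial markers summed to 9408 to 13160 FPKM in normal mice against 9123 to 12750 FPKM in colitis mice, and per unit of these markers the log2 difference was 2.32 for Ereg, 2.46 for Epgn and 1.37 for Egfr. The 10 squamous markers summed to 93.05 to 186.1 FPKM in normal mice against 179.2 to 305.5 FPKM in colitis mice, most of it from Sfn, which columnar epithelium also makes. The filter on low values kept 6 of the 10, and Krt13 and Krt6a, 2 of the 6, were higher past the unadjusted limit. Of the 6, Krt13 measured 0.23 to 1.21 FPKM in normal mice and 2.4, 5.18 and 0.66 FPKM in colitis mice 1, 2 and 4 (log2 difference 1.92 ± 0.8, SE, unadjusted P = 0.0333, adjusted p = 0.198 by limma), while Krt10 and Krt14 had log2 differences of -0.28 and -0.1. Krt6a, which passed the filter only through the colitis mice, was listed at 0 FPKM in every normal mouse and at 0.26, 0.97 and 0.14 FPKM in the colitis mice. The part of such cells was not tested. The 7 mast cell markers summed to 15.82 to 25.28 FPKM in colitis mice, against 11.38 to 14.96 FPKM in normal mice and 7.59 to 12.2 FPKM in the colitis mice with BBR. These sums were apart in both comparisons, as were Ereg and the macrophage sums, at 178.5 to 336.5 FPKM in the colitis mice with BBR. Of the 6 mast cell markers tested, 2 were higher and 1 lower past the unadjusted limit in colitis, and the part of these cells was not tested.
The second comparison, colitis mice receiving BBR against colitis mice, asks what BBR changed in the injured bowel. Ereg was lower past the unadjusted limit, 1 of 10 members where 5.2% of all tested genes were lower by it, and 0 of 10 members passed the adjusted limit, as did 0% of all genes. Ereg and Tgfa, 2 of 10 members, were lower in every mouse with BBR than in every colitis mouse, against 5.66% of all tested genes. The members' median log2 difference was -0.2, against -0.09 over all tested genes. The colitis mice are the same animals as in the first comparison, so a low value here and a high value there share them.
In colitis mice 2, 3 and 4 receiving BBR, Ereg measured 1.71, 5.42 and 2.68 FPKM. The highest of them was below the lowest colitis mouse, at 6.08 FPKM. The difference was -1.64 ± 0.56 (log2, SE), 3.11-fold lower, with a 95% interval of -2.86 to -0.41, an unadjusted P of 0.013 and an adjusted p of 0.594 by limma. It ranged from -2.07 to -1.17 when each mouse was left out, and the unadjusted P was 0.0668 without colitis mouse 2 and 0.059 without colitis mouse 2 receiving BBR. Macrophage markers summed to 178.5 to 336.5 FPKM with BBR, with 6 of 8 lower past the unadjusted limit, and granulocyte markers to 6.57 to 235.9 FPKM, with 3 of 8 lower past it. Fibroblast markers summed to 189.2 to 280.1 FPKM with BBR and 201 to 786.1 FPKM without, with 1 of 8 lower past it. The smooth muscle markers summed to 478 to 3485 FPKM with BBR, with a median log2 difference of 1.53 and 0 of 8 past the limit by limma, and the squamous marker Krt6a measured 0, 0.17 and 0 FPKM. Of these ends, the fibroblast sum of 786.1 FPKM was that of colitis mouse 2. The granulocyte sum of 6.57 FPKM was that of colitis mouse 4 receiving BBR. The sum of 235.9 FPKM was that of colitis mouse 2 receiving BBR, which had the least Ereg of its group. The part of these cell types in the Ereg difference was not tested.
Epgn measured 0.23, 0.78 and 0.06 FPKM in colitis mice 2, 3 and 4 receiving BBR. Mouse 4 was under the worth of 3 reads while mouse 3 lay within the colitis range, and the difference of -1.32 ± 0.61 (log2, SE) had an unadjusted P of 0.0509 and an adjusted p of 0.784 by limma. It passed the unadjusted limit in 7 of 17 other settings, both blocks among them, and the adjusted limit in 0 of 17, and without colitis mouse 3 receiving BBR it was -1.97 (unadjusted P = 0.00497, adjusted p = 0.175 by limma) without colitis mouse 4 -1.67, without colitis mouse 2 -0.88 and without colitis mouse 4 receiving BBR -0.74. Egfr measured 7.16, 28.54 and 6.71 FPKM in the same mice. Colitis mice 2 and 4 receiving BBR were below every colitis mouse and mouse 3 was above 2 of them, so that the groups overlapped (log2 difference -0.74 ± 0.59, SE, adjusted p = 1 by limma). The Egfr difference was -1.42 without colitis mouse 3 receiving BBR, with an unadjusted P of 0.0176 by limma, and -0.16 without colitis mouse 2.
Tgfa measured 8.17, 8.64 and 9.19 FPKM with BBR. The 3 values lay below the colitis values by a small margin, with a log2 difference of -0.25 ± 0.17 (SE, adjusted p = 0.986 by limma). Areg measured 97.75, 58.48 and 22.0 FPKM, as widely spread as in colitis mice, and its log2 difference was 0.27 ± 0.61 (SE), with a 95% interval of -1.06 to 1.59. Hbegf, at 9.46, 24.35 and 8.29 FPKM, and Btc, at 4.64, 4.1 and 2.91 FPKM, both overlapped with the colitis mice. Erbb2 measured 20.78, 21.2 and 39.17 FPKM and Erbb3 50.63, 44.08 and 58.59 FPKM, with log2 differences of -0.16 and -0.02, which both turned above 0 when scaled to the epithelial markers. Errfi1, at 44.89, 76.14 and 40.21 FPKM, had a log2 difference of 0.13. For these 6 genes the standard errors, 0.23 to 0.68, exceeded the differences.

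**Figure D4:**
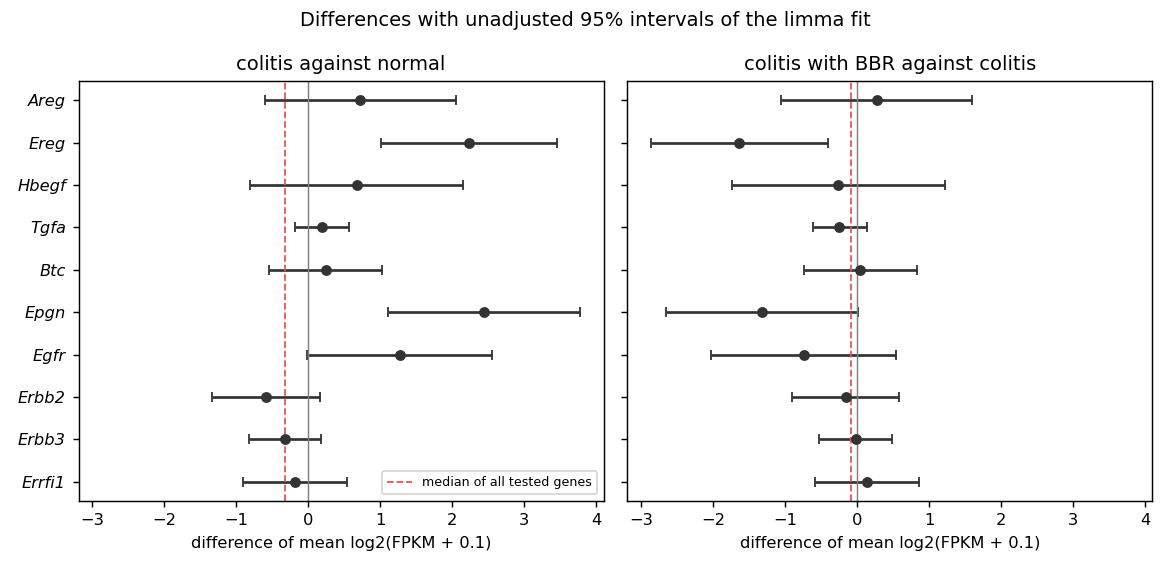
Difference of mean log2(FPKM + 0.1) for the 10 members in colitis mice against normal mice and in colitis mice receiving BBR against colitis mice. Points are limma estimates with 95% intervals, the dashed line is the median of all tested genes, and only Ereg has intervals that leave out 0 in both panels.

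The third comparison, normal mice receiving BBR against normal mice, asks what BBR did without injury. By the unadjusted limit 0 of 10 members were called by limma, where 1.36% of all tested genes were, and 0 of 10 by the adjusted limit, as was 0% of all tested genes, with differences from -0.74 for Hbegf to 0.61 for Btc. Without normal mouse 3 the Hbegf difference was -1.54 with an unadjusted P of 0.0215 by limma, and without normal mouse 1 it was -0.03. Btc measured 6.85, 3.73 and 4.28 FPKM in normal mice 1, 3 and 4 receiving BBR, above all 3 normal mice, and was the 1 of 10 members without overlap, where 4.17% of all tested genes were higher without overlap. Its difference was 0.61 ± 0.36 (log2, SE, unadjusted P = 0.117, adjusted p = 1 by limma), and 0.35 to 0.78 when each mouse was left out. The other ligands lay across the normal range: Areg at 15.25, 32.72 and 19.33 FPKM, Ereg at 2.19, 2.35 and 2.07 FPKM, Hbegf at 3.16, 8.35 and 6.4 FPKM, and Tgfa at 8.37, 9.01 and 7.64 FPKM. Epgn, at 0.19, 0.09 and 0.03 FPKM, was above the worth of 3 reads in mouse 1 only. Egfr measured 13.52, 7.21 and 6.1 FPKM, with mouse 1 apart from the other two, Erbb2 32.77, 33.54 and 41.73 FPKM, Erbb3 61.03, 48.5 and 68.62 FPKM, and Errfi1 56.65, 53.21 and 65.76 FPKM.
The fourth comparison set the injury within BBR-treated animals, colitis mice receiving BBR against normal mice receiving BBR. By limma 0 of 10 members passed the unadjusted limit, which 19.7% of all tested genes did, and 0 of 10 the adjusted limit, which 0.0392% did, and all 10 overlapped, where 20.2% of all tested genes did not. The largest differences were those of Areg, at 1.23 ± 0.61 (log2, SE, unadjusted P = 0.0656, adjusted p = 0.272 by limma), and Hbegf, at 1.15 ± 0.68 (log2, SE, adjusted p = 0.326 by limma). Areg passed the unadjusted limit in 6 of 18 other settings and the adjusted limit in 0 of 18, and it was 1.82 without colitis mouse 4 receiving BBR (unadjusted P = 0.00871, adjusted p = 0.0536 by limma), 1.54 without normal mouse 3 receiving BBR (unadjusted P = 0.0449 by limma) and 0.75 at the lowest. Hbegf passed the unadjusted limit in 2 of 18. Ereg and Egfr each differed by 0.4, and without colitis mouse 3 receiving BBR by -0.04 and -0.28.
The interaction asks whether the effect of BBR differed between injured and uninjured bowel. Ereg was the 1 of 10 members past the unadjusted limit, where 2.42% of all tested genes were, and 0 of 10 passed the adjusted limit, as did 0% of all tested genes. Its BBR difference was -1.64 in colitis mice and 0.2 in normal mice, an interaction of -1.83 ± 0.79 (log2, SE) with an unadjusted P of 0.0397 and an adjusted p of 1 by limma. For Epgn it was -1.54 ± 0.86 and for Egfr -0.87 ± 0.83 (log2, SE), with unadjusted P of 0.0993 and 0.317 by limma. Leaving out each mouse gave -2.19 to -0.96 for Epgn and -1.54 to -0.29 for Egfr, and of these fits both passed the unadjusted limit only in that without colitis mouse 3 receiving BBR, with P of 0.0144 and 0.0448 by limma.
Apart from Nrg1, the remaining ligands and the receptor of the family were at most 1.18 FPKM in any mouse. Nrg1, the ErbB3 and ErbB4 ligand neuregulin 1, measured 1.74, 6.45 and 1.82 FPKM in colitis mice, against 0.75, 0.57 and 1.34 FPKM in normal mice and 0.21, 1.63 and 0.57 FPKM in the colitis mice with BBR. It was higher in every colitis mouse than in the mice of both other groups. The log2 difference was 1.61 ± 0.69 (SE, unadjusted P = 0.0386, adjusted p = 0.21 by limma) in colitis against normal and -2.0 ± 0.69 (SE, unadjusted P = 0.0135, adjusted p = 0.597) with BBR against colitis. Egf itself measured 0.95, 0.69 and 0.43 FPKM in normal mice against 0.2, 0.27 and 0.31 FPKM in colitis mice, without overlap (log2 difference -1.09 ± 0.46, SE, unadjusted P = 0.0343, adjusted p = 0.199 by limma). Nrg4 was 0.24 to 0.83 FPKM and Nrg2 0.02 to 0.38 FPKM over the 12 mice, with log2 differences of -0.42 and -0.89 in colitis against normal that passed no limit. Nrg3, at most 0.15 FPKM, and Erbb4, at most 0.01 FPKM, were below the filter.
The shedding list holds the proteases Adam10 and Adam17, the ADAM17 partners Rhbdf1 and Rhbdf2 and the inhibitor Timp3, all 5 tested. Adam10 was the 1 of 5 genes past the unadjusted limit in colitis against normal, where 21.4% of all tested genes passed it in either direction. It measured 24.77, 26.66 and 28.93 FPKM in normal mice against 45.26, 36.49 and 43.09 FPKM in colitis mice. The groups were well apart, with a difference of 0.63 ± 0.22 (log2, SE, unadjusted P = 0.0151, adjusted p = 0.148 by limma). Adam17, the protease best known for cutting amphiregulin, measured 9.78, 9.45 and 11 FPKM in normal mice against 10.3, 10.35 and 10.98 FPKM in colitis mice. Timp3, the ADAM17 inhibitor, measured 33.91, 33.76 and 46.33 FPKM in the normal mice with BBR against 9.22, 7.16 and 25.51 FPKM in the colitis mice with BBR. These groups did not overlap (log2 difference -1.65 ± 0.48, SE, unadjusted P = 0.00492, adjusted p = 0.215 by limma). In the same comparison 8 of 8 fibroblast markers had lower means (5 past the unadjusted limit, median log2 difference -1.22) and 8 of 8 smooth muscle markers (3 past it, median -1.97). Lower means were also found for 12263 of 15315 tested genes, with a median of -0.4 and 17.3% lower past the limit. The part of these cell types in the Timp3 value was not tested.
Of the 22 genes that relay the signal, 20 had a lower mean in colitis than in normal mice, as had 11293 of 15315 tested genes. Their median log2 difference was -0.24, against -0.32 over all tested genes. By the unadjusted limit 1 of 22 was higher and 2 were lower, where 5.56% and 15.9% of all tested genes were, and 0 passed the adjusted limit. Gab1, a docking protein of the receptor, measured 8.2, 10.47 and 8.98 FPKM in normal mice against 3.93, 2.19 and 4.61 FPKM in colitis mice (log2 difference -1.4 ± 0.51, SE, adjusted p = 0.159 by limma). Map2k1, which encodes the ERK kinase MEK1, had a difference of -0.6 ± 0.25, and Nras, a RAS protein, one of 0.48 ± 0.21 (log2, SE). The Gab1 values of the groups were well apart. With BBR in colitis mice, Gab2, a second docking protein, was the 1 of 22 relay genes past the unadjusted limit, where 5.2% of all tested genes were lower by it, at 1.62, 2.45 and 3.82 FPKM against 4.61, 3.8 and 4.5 FPKM, where colitis mouse 4 receiving BBR overlapped with colitis mouse 2 (log2 difference -0.77 ± 0.29, SE, unadjusted P = 0.023, adjusted p = 0.651 by limma). In colitis mice receiving BBR against normal mice receiving BBR, 6 of 22 were lower past the unadjusted limit, among them the phosphatase Ptpn11 at -0.64, the kinase Braf at -0.63 and the RAS activator Sos2 at -0.61 (log2), where 17.3% of all tested genes were lower by it. Nras had an interaction of -0.64 with an unadjusted P of 0.0485 and an adjusted p of 1 by limma.
The 15 negative regulators had a median log2 difference of -0.66 in colitis against normal, against -0.32 over all tested genes. The mean was lower for 12 of 15, as it was for 11293 of 15315 tested genes. Past the unadjusted limit 6 of 15 were lower and 0 higher, where 15.9% of all tested genes were lower by it, while 0 passed the adjusted limit by limma. Lrig1, a membrane protein that restrains EGFR and marks crypt stem and progenitor cells, measured 30.32, 20.72 and 22.49 FPKM in normal mice against 5.83, 4.45 and 20.2 FPKM in colitis mice. Colitis mice 1 and 2 were far below the normal mice and colitis mouse 4 just below them (log2 difference -1.57 ± 0.62, SE, adjusted p = 0.183 by limma). Its relative Lrig3 measured 21.75, 17.05 and 16.06 FPKM against 7.54, 3.27 and 11.3 FPKM (log2 difference -1.46 ± 0.55, SE, adjusted p = 0.171 by limma). Cblb, a ubiquitin ligase that sends the receptor to degradation, measured 4.35, 5.25 and 5.8 FPKM against 2.01, 1.58 and 3.43 FPKM (log2 difference -1.16 ± 0.44, SE, adjusted p = 0.171 by limma). In none of these genes did a colitis mouse reach the normal range.
With BBR in colitis mice, the negative regulators had a median difference of 0.07 and 0 of 15 past the unadjusted limit. Lrig1 measured 4.67, 3.64 and 19.31 FPKM in colitis mice 2, 3 and 4 receiving BBR, the same split by mouse number as in colitis mice. Lrig3 was again lower past the unadjusted limit in colitis mice receiving BBR than in normal mice receiving BBR (log2 difference -1.31 ± 0.55, SE, adjusted p = 0.241 by limma), as were Spry1 at -0.97 and Cbl at -0.75, 4 of 15 in all, where 17.3% of all tested genes were lower by it. In normal mice with BBR, 1 of 15 was higher past the unadjusted limit, which 1.36% of all tested genes passed in either direction, the cytokine signalling suppressor Socs4, at 8.35, 9.4 and 8.35 FPKM against 6.5, 5.14 and 5.62 FPKM (log2 difference 0.59 ± 0.22, SE, unadjusted P = 0.0185, adjusted p = 1 by limma). These Socs4 values did not overlap.
The 13 ERK response genes had a median log2 difference of 0.43 in colitis against normal, against -0.32 over all tested genes. Past the unadjusted limit 2 of 13 were higher and 1 lower, where 5.56% and 15.9% of all tested genes were, and 0 passed the adjusted limit. Ier3, an immediate early gene, measured 14.23, 7.32 and 7.9 FPKM in normal mice against 23.99, 33.05 and 14.36 FPKM in colitis mice. The lowest colitis mouse was only just above normal mouse 1 (log2 difference 1.25 ± 0.39, SE, unadjusted P = 0.00729, adjusted p = 0.115 by limma). Epha2, an ephrin receptor, measured 7.38, 4.97 and 8.07 FPKM against 13.31, 20.44 and 11.21 FPKM (log2 difference 1.11 ± 0.39, SE, adjusted p = 0.146 by limma). The feedback inhibitor Spry2, which is in the list of negative regulators too, had a difference of -0.73 ± 0.32 (log2, SE). In the BBR-treated pair of groups, Ier3 was higher in colitis by 1.26, the ERK phosphatase gene Dusp5 by 1.34, and Spry2 differed by -0.74 (log2), all 3 of 13 past the unadjusted limit only, which 19.7% of all tested genes passed. For Dusp5, colitis mouse 2 receiving BBR stood apart at 43.97 FPKM, against 13.08 and 6.45 FPKM in the other mice of the group.

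**Figure D5:**
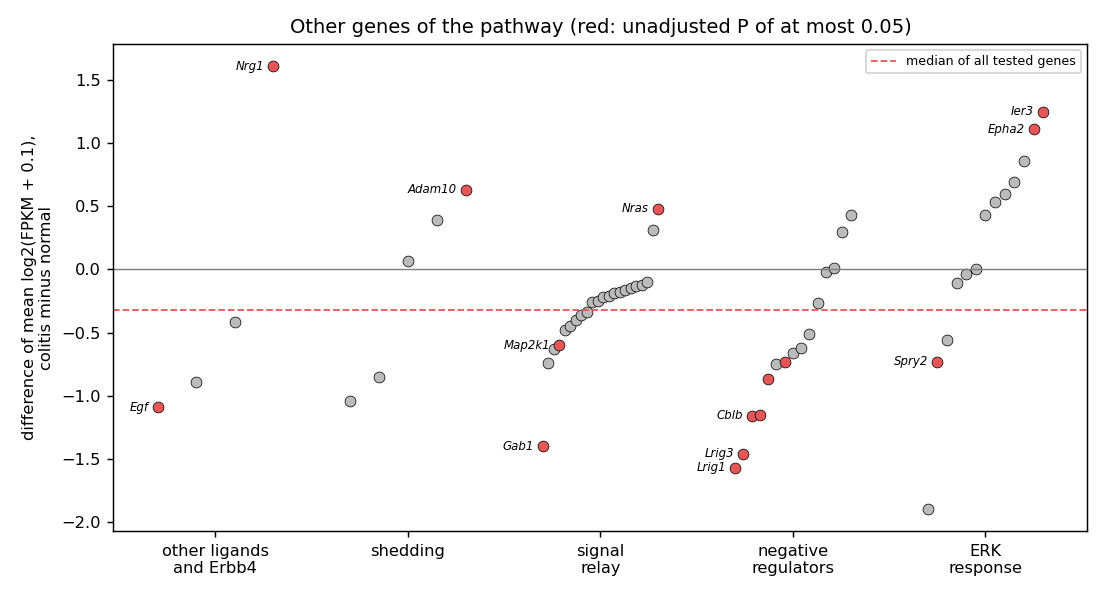
Difference of mean log2(FPKM + 0.1) between colitis mice and normal mice for the other genes of the pathway, 1 point a gene, in 5 lists. Red points have an unadjusted P of at most 0.05, none passed the adjusted limit, and the dashed line is the median of all tested genes at -0.32.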

How the data were processed

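Bulk RNA of 12 mice was sequenced by the authors, 3 in each of 4 groups, and mice were grouped by the sample labels. By the methods the authors removed poor reads with SOAPnuke, and by the submitters' processing notes they used Bowtie2 2.2.5 and RSEM 1.2.12. They deposited a table with a column for each mouse. No source names its unit, and the RSEM values that the authors deposited were taken as FPKM, though they could be TPM. No further scaling was applied, so a shift shared by many genes stays in the values.
Genes with a mean of at least 0.1 FPKM in all 12 mice were put on the log2(FPKM + 0.1) scale and fitted in R 4.3.3 by limma 3.58.1, using group means, a trend in the spread and Benjamini-Hochberg adjustment over 15315 genes. The fit was tested on simulated data. The members and gene lists were chosen with earlier results of these data known. Named from the pathway lists are all other family genes and, per comparison, any gene past the adjusted limit and the 3 largest changes with an unadjusted P of at most 0.05. Adam17 was named after its values were seen. Of the markers, Epcam, Cdh1, Vil1, Krt5, Krt4, Trp63, Krt13, Krt10, Krt14, Krt6a, Dsg3, Sfn and S100a8 are named as examples, chosen after their values were seen.
The table holds no counts. The worth of 1 read was estimated from the steps between the lowest values in 2085 single-transcript genes, in FPKM for 1 base of transcript, as 73.5 to 80.5 in the mice numbered 1 to 3 and 50.5 to 57.75 in those numbered 4, and for Epgn the longest coding transcript of GENCODE M21 was used. The interval of its ratio is exact for counts. Mice with the same number were not taken as pairs by the rule used, since the lowest of 13 correlations of their deviations was 0.08. That value was among the mice numbered 1 to 3, while those numbered 4 correlated at 0.36 or more. The fit as reported has no block for the mice numbered 4, so what sets them apart stays in its spread. P-values measure the spread between mice. Promoter windows are RefSeq sequences of GRCm38.p6, matched by symbol, while the labels name another build for the reads. The fit was repeated with other pseudocounts (0.01 and 1), without the filter or with it at 1 FPKM, with quantile-normalized or median-centred values, without the trend, with blocks for the replicate number or for mouse number 4, without all mice of that number, on the compared groups only, without each mouse in turn, and scaling to the epithelial markers, which was chosen after seeing the data. Figures were drawn in Python 3.11.15 with matplotlib 3.10.9.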

Additional observations from a re-analysis of the deposited data

Results flagged for a closer look

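For Ereg the interaction of BBR and colitis passed the unadjusted limit only, which 2.42% of all tested genes passed. It was flagged because it passed that limit. The interaction was -1.83 ± 0.79 (log2, SE), with a 95% interval of -3.57 to -0.1, an unadjusted P of 0.0397 and an adjusted p of 1 by limma. BBR went with 1.71 to 5.42 FPKM against 6.08 to 18.07 FPKM in colitis mice and with 2.07 to 2.35 FPKM against 0.79 to 2.96 FPKM in normal mice. Leaving out each mouse gave -2.27 to -1.25, and the unadjusted limit was then passed in 5 of 12 cases, with P up to 0.104 by limma, without colitis mouse 2. Over all 23 other settings it was passed in 12, and it was missed with quantile normalization, centring, the replicate block and the mice numbered 1 to 3 alone. In the same test 8 of 8 granulocyte and 8 of 8 macrophage markers had values below 0 (median log2 -1.92 and -1.03). So had 6 of 6 squamous markers tested (median -0.49) and 9022 of 15315 tested genes. The smooth muscle markers were above 0 in 8 of 8 (median 0.79). The part of these cell types was not tested.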

How the results depend on the processing

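Ereg and Epgn kept their direction in colitis against normal under every alternative run for them, but their side of the adjusted limit depended on the setting. The number of members past it was 0 as reported, 1 with quantile normalization (Ereg), 1 with the replicate block (Epgn), 2 with a block for the mice numbered 4, and 1 each with the mice numbered 1 to 3 alone and the compared groups alone (Epgn both times, in the former only just). Members past the unadjusted limit in that comparison were 2 as reported and 1 with a filter at a mean of 1, which drops Epgn. They were 4 with quantile normalization and with centring, where Egfr and Tgfa were added. They were 3 with a block for the mice numbered 4, the compared groups alone and scaling to the epithelial markers, where Egfr was added, and 2 to 3 when each mouse was left out. With BBR against colitis they were 1 as reported and 2 with a pseudocount of 1, no filter, no trend and either block, where Epgn was added, and 0 to 3 when each mouse was left out. With BBR against normal they were 0 to 1 when each mouse was left out. In colitis with BBR against normal with BBR they were 0 as reported, 1 with quantile normalization, a block for the mice numbered 4 and the mice numbered 1 to 3 alone, 2 with the compared groups alone, 3 with centring, and 0 to 3 when each mouse was left out. The interaction had 1 as reported, 0 with quantile normalization, centring, the replicate block and the mice numbered 1 to 3 alone, 2 with a block for the mice numbered 4, and 0 to 3 when each mouse was left out. Same-numbered mice had deviations with a mean correlation of 0.34, 0.5 among the mice numbered 4 and 0.21 among the others, against -0.1 for differently numbered pairs. For numbers 1 to 3 this is only a hint of pairing. The mice numbered 4 deviated alike in every group, which the fit as reported does not take out. Quantile normalization moved the median of all genes in colitis against normal from -0.32 to -0.05 and centring to 0.02, with 1488 higher and 1521 lower genes past the unadjusted limit by the former and 1442 and 1245 by the latter, against 852 and 2428 as reported. In colitis with BBR against normal with BBR the median moved from -0.4 to -0.03 and 0.06. Past the unadjusted limit 994 genes were then higher and 900 lower by the former and 1084 and 622 by the latter, against 363 and 2647 as reported. The shares of all tested genes given for that comparison depend on the scaling in this way.
Signs turned for these differences. With BBR against colitis, Erbb3 was 0.08 with quantile normalization, 0.13 with centring, 0.04 with the replicate block and 0.2 scaled to the epithelial markers, Erbb2 was 0.05 scaled to them, and Btc was -0.02 in the mice numbered 1 to 3. In colitis against normal, Erbb3 was 0.01 with centring and Errfi1 0.15 with centring and 0.16 in the mice numbered 1 to 3. With each mouse left out, colitis against normal gave -0.13 to 1.38 for Hbegf, -0.14 to 0.49 for Btc and -0.59 to 0.11 for Errfi1. BBR against colitis gave -0.3 to 0.86 for Areg, -0.74 to 0.03 for Hbegf, -0.21 to 0.43 for Btc, -0.57 to 0.07 for Erbb2, -0.24 to 0.16 for Erbb3 and -0.16 to 0.53 for Errfi1. Colitis with BBR against normal with BBR gave -0.04 to 0.77 for Ereg and -0.28 to 0.76 for Egfr. The cause of these turns was not tested. Depth limits Epgn, whose normal values rest on 1 to 2 reads a mouse.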

Other observations

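Genes whose levels followed a member most closely over the 12 mice were looked up among 11942 tested genes with a mean of at least 1 FPKM, by Pearson's r of log2(FPKM + 0.1). For Areg they were the chemokine gene Ccl20 (r = 0.96), 1700088E04Rik (r = 0.926) and Fam183b (r = 0.904). For Egfr they were Anxa1, which encodes annexin A1 (r = 0.955), the cyclic AMP responsive repressor gene Crem (r = 0.951) and the semaphorin gene Sema7a (r = 0.949). For Errfi1 they were Qpct (r = 0.925), Tm4sf1 (r = 0.902) and Msantd3 (r = 0.867). These values describe 12 mice that share group, library and depth differences, and the genes were the highest of many.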
